A study of Mus musculus with 4 samples.

Results

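The 9 genes described here encode transcription factors that set the fate of myeloid cells: the C/EBP factors Cebpa, Cebpb, Cebpd and Cebpe, the repressor Gfi1, the ETS factor Spi1 (PU.1), and Irf8, Klf4 and Runx1. They were chosen by gene symbol from the 53465 genes of the deposited count table, and each symbol stood on 1 row. RNA was sequenced from MDSCs (myeloid-derived suppressor cells, immature myeloid cells that accumulate in hosts with tumors) of BALB/c mice that carried 4T1, a transplantable mammary carcinoma line. The control group and the EGCG treatment group had 2 libraries each. Both held spleen cells sorted 21 days after 4T1 injection according to the labels, while the study's methods state an earlier day and name 6-week-old male mice. Xist, an RNA of female cells, had 3093 to 5671 counts per library, so the stated sex is uncertain for these libraries. The cells were pulled out with beads against Gr-1, an epitope on Ly-6G and Ly-6C, and kept for 6 h in medium alone or with EGCG, a green tea catechin, at 5 μg/mL. Separate mice or wells for the 2 libraries of a group are not stated in the sources used here, so the tests measure the spread between these libraries, which may be technical.

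As background, PU.1 and C/EBPα open the myeloid program in progenitors, with RUNX1 acting upstream of PU.1. The balance of C/EBP factors and GFI1 against IRF8 and KLF4 then steers cells toward granulocytes or toward monocytes. C/EBPε drives the late steps of neutrophil maturation, in which the secondary granules are filled. C/EBPβ and C/EBPδ are induced in inflammation and in emergency granulopoiesis, the fast output of granulocytes under infection or tumor growth, and C/EBPβ is known as a driver of MDSC formation.

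All 9 genes were well measured. Their counts ran from 364 (Gfi1, control replicate 2) to 17202 (Spi1, EGCG replicate 2), which leaves a counting error of 0.797% for Spi1 and 5.24% for Gfi1 in their lowest library. All 9 passed the filter on low counts, as did 14682 genes in total. The library totals ran from 17767318 to 18390385 counts. Ptprc, Itgam, Ly6g, Ly6c1 and Ly6c2, which define the sorted cells, were present in every library, with a summed level of 3204 to 3667 CPM (counts relative to the library total after TMM scaling). Neutrophil markers summed to 60740 and 72050 CPM in the control libraries and to 81080 and 72060 CPM in the EGCG libraries. Markers of other spleen cells were also present, among them B cells (5 of 5 genes, 349.1 to 396.9 CPM), splenic macrophages (7 of 7, 285.9 to 363.3 CPM), eosinophils, basophils and mast cells (5 of 5, 832.5 to 1119 CPM) and endothelial cells (4 of 4, 93.92 to 125.9 CPM). The other marker sums were those of T and NK cells (85.93 to 100.8 CPM), erythroid cells (135.5 to 185.0 CPM), megakaryocytes (31.97 to 39.28 CPM), dendritic cells (10.80 to 12.27 CPM) and epithelial tumor cells (22.72 to 26.67 CPM, with 1 of 4 genes at no more than 3 counts), and myeloid progenitor genes summed to 623.6 to 652.9 CPM.

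To compare the genes with each other, levels were divided by exonic length (RPKM, which is CPM per kilobase of annotated exon). Spi1 and Cebpb stood at the top of this order, with means over the 4 libraries of 339.5 and 295.0 RPKM. Spi1 was above Cebpb inside each library, but their ranges met, since Spi1 began at 324.0 RPKM in control replicate 1 and Cebpb reached 342.1 RPKM in EGCG replicate 2. Cebpe followed with 116.9, Cebpd with 78.21 and Cebpa with 46.65 RPKM. The ranges of these 3 genes did not touch each other. Irf8 had 11.54, Klf4 9.221, Gfi1 6.892 and Runx1 5.932 RPKM on average. Klf4 and Gfi1 could not be ordered, as Klf4 was the lower of the pair in EGCG replicate 1 (6.964 against 7.718 RPKM) and the higher in the other 3 libraries. The annotated exons of Runx1 (12025 bases) and Irf8 (7055 bases) add up several transcript forms, and levels per length are understated where a short form prevails. Of the exons of Cebpb 20.7%, and of Cebpd 15.0%, overlap a gene on the other strand, where reads cannot be assigned. Their levels per length may therefore be understated too, and the order of Spi1 and Cebpb is not settled by these values.

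**Figure D1:**
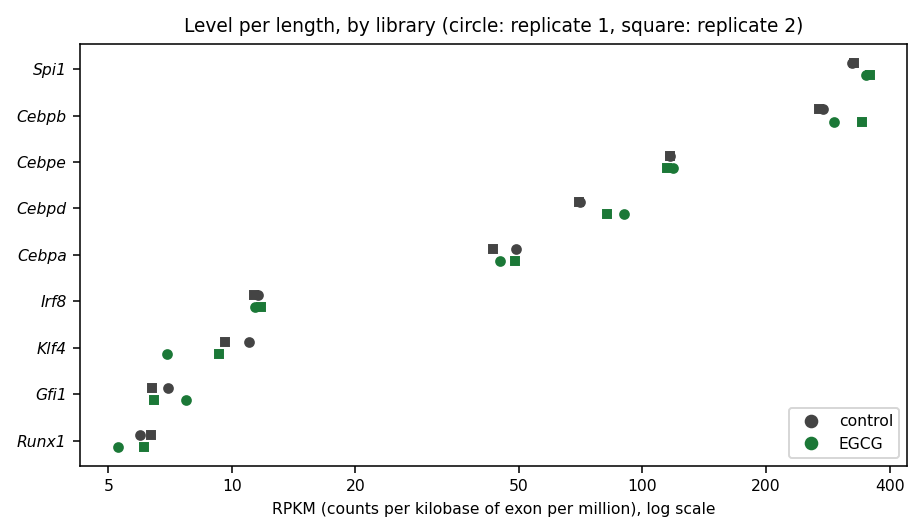
Level of the 9 genes per length in the 4 libraries, as RPKM on a log scale, with control libraries in grey and EGCG libraries in green. Spi1 and Cebpb lie between 269.8 and 357.4 RPKM, whereas Irf8, Klf4, Gfi1 and Runx1 lie between 5.279 and 11.80 RPKM.

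Start regions of 4 genes are given so that the RNA values can be set beside their promoters. RefSeq (GRCm38.p6) had windows of 300 bases, from 250 before to 50 after an annotated start, for 6 of the 9 genes, and none was at hand for Cebpd, Cebpe and Spi1. Cebpb and Klf4 are shown as the genes with a window that differed most in opposite directions, Cebpa as the flat relative of Cebpb, and Runx1 (the distal of its 2 starts) for the motif of its own family. Capitals mark matches, on either strand, to the C/EBP motif TTGCNNAA, the PU.1 motif GAGGAA, the RUNX motif TGTGGT, the KLF motif CCCACCC, the CRE core TGACG and the TATA box TATAAA, and no match overlapped another in these 4 windows. Each sequence is written 5′ to 3′ along its gene.
Cebpb, plus strand, chr2:167688665-167688964: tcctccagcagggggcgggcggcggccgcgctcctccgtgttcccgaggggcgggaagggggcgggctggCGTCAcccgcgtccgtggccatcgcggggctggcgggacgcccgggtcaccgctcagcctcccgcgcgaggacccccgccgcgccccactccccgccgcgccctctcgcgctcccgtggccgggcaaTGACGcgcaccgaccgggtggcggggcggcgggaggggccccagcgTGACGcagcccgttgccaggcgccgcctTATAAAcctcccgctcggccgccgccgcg
Klf4, minus strand, chr4:55532426-55532725: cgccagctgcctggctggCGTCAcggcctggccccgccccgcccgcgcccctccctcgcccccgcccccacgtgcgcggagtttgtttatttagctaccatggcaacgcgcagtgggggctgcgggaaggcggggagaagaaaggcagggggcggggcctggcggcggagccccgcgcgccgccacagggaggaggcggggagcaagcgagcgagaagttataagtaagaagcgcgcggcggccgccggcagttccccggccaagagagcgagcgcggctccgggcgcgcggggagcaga
Cebpa, plus strand, chr7:35119043-35119342: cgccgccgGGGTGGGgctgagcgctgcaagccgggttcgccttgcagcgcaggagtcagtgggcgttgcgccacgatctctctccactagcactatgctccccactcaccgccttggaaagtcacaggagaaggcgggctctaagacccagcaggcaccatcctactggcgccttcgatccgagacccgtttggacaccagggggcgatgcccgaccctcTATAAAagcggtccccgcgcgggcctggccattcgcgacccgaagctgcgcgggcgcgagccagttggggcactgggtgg
Runx1, minus strand, chr16:92826025-92826324: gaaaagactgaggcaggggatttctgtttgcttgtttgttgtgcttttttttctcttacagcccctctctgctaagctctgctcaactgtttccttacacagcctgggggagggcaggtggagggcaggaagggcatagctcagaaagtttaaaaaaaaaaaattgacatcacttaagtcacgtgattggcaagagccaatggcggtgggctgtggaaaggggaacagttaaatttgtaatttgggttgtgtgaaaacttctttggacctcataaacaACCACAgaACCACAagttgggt

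The window of Cebpb, with a GC content of 80.7%, held 3 CRE cores, the letters that CREB and ATF factors read, and a TATA box 22 bases after its start. Such a core was found in 20.8% of the 32851 RefSeq windows of this length and a TATA box in 13.6%. Klf4 had 1 CRE core (window GC content 74.3%), and Cebpa had a TATA box 30 bases before its start and 1 KLF match, which 17.5% of windows hold. The distal Runx1 window, the most AT-rich of the 4 with 45.0% GC, carried 2 RUNX matches just after its start, a motif found in 16.8% of windows. In the windows of these members that are not printed, Gfi1 had 1 C/EBP match (10.8% of windows), the second Runx1 start 1 PU.1 match (28.3%), and Irf8 1 TATA box. A match is a string of letters and not a measured binding site, and the absence of one concerns these windows alone.

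In the comparison of EGCG with control, 7 of the 9 genes had a higher mean and 2, Klf4 and Runx1, a lower one, though Cebpa, Cebpe and Irf8 turned to the lower side when libraries were scaled by their size alone. The quasi-likelihood test of edgeR, adjusted for all 14682 tested genes by the Benjamini-Hochberg method, gave 0 of the 9 an adjusted p under 0.05, as against 22 genes or 0.150% of all those tested. DESeq2 also called 0 of the 9, with 3 at an unadjusted p under 0.05, beside 3.31% of the 27490 genes that it tested with no filter on low counts. At an unadjusted p under 0.05, the same edgeR test gave 3 of the 9 genes (33.3%), against 12.2% of the tested genes. Cebpd and Cebpb were the higher ones, in a direction that 5.22% of the tested genes took, and Klf4 was the lower one, in a direction that 7.02% took. When libraries were scaled by size alone, the split over all genes was 472 higher to 1406 lower instead of 767 to 1030. The EGCG and control libraries did not overlap for 4 of the 9 genes (44.4%), which is close to the 42.7% of all tested genes with this scaling. With the length correction it was 6 of the 9, beside 40.5% of all tested genes. With TMM scaling alone these were Cebpb, Cebpd and Spi1 on the higher side (21.5% of tested genes) and Klf4 on the lower side (21.2%). The median log2 fold change of the 9 genes was 0.021 and that of all tested genes 0.0031. A two-sided exact permutation test of 2 libraries against 2 cannot go below p = 0.33, and was therefore not used for single genes.

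**Figure D2:**
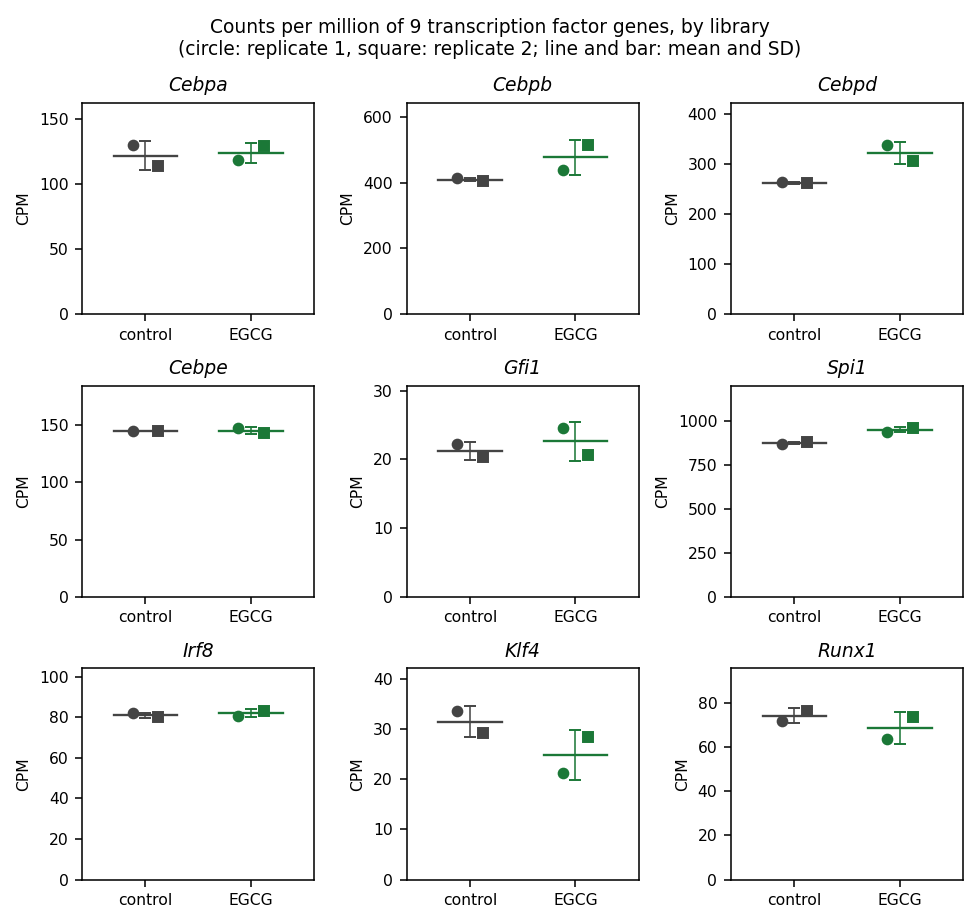
CPM of the 9 genes in each library, with the mean and SD of the 2 libraries of each group; every vertical axis starts at 0. The EGCG libraries lie above both control libraries for Cebpb, Cebpd and Spi1, below both for Klf4, and overlap with them for the other 5 genes.

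**Figure D3:**
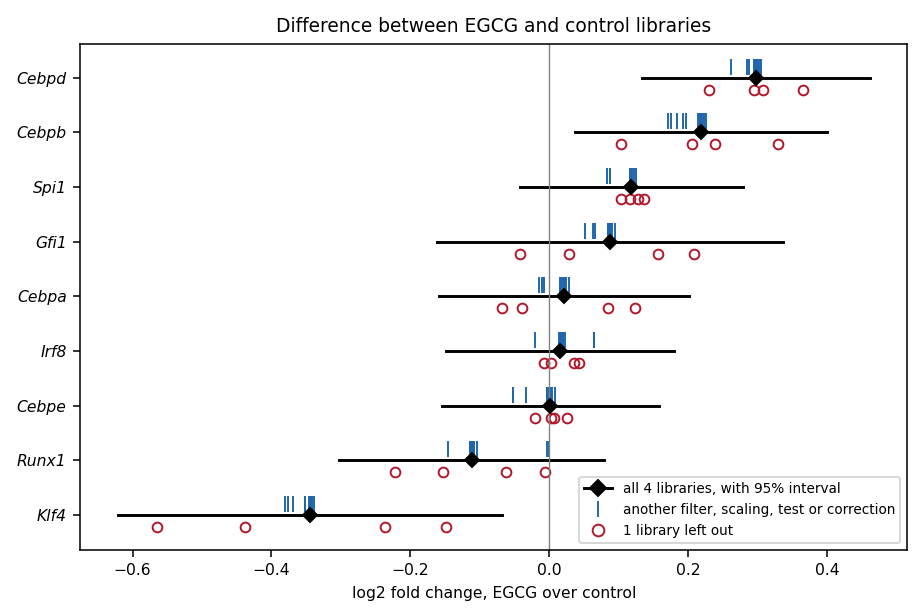
Log2 fold change of each gene (EGCG over control) with its 95% interval from edgeR (black), under the 13 other settings (blue) and with 1 library left out (red circles). Cebpd lies to the right of 0 and Klf4 to the left at every setting, and Cebpe, Irf8, Cebpa and Gfi1 lie on both sides.

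Among the C/EBP factors, Cebpd had the largest log2 fold change with all 4 libraries, whereas without EGCG replicate 1 that of Cebpb was larger (0.33 against 0.23). Cebpd (ENSMUSG00000071637, chromosome 16 of GRCm38 from 15887286 to 15891031, a gene of 1 exon) encodes C/EBPδ, an early inflammatory activator. It was at 263.8 and 262.0 CPM in the control libraries and at 338.4 and 307.7 CPM in the EGCG libraries. Both EGCG values lay above the nearly equal control values, and the step between the groups was wider than that between the EGCG libraries. The log2 fold change was 0.30 with a standard error of 0.077 (95% interval from 0.13 to 0.46), which is 1.23-fold, and edgeR's quasi-likelihood test gave an adjusted p of 0.138. Across 13 other settings its adjusted p ran from 0.0648 with DESeq2 to 0.650 without a filter. Without EGCG replicate 2 the log2 fold change was 0.37, and without EGCG replicate 1 it was 0.23. Of the exonic bases of Cebpd, 562 (15.0%) overlap Spidr on the other strand, and reads from there cannot be assigned in a count that ignores strand. Spidr itself had a log2 fold change of -0.13 (standard error 0.10).

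Cebpb (ENSMUSG00000056501, chromosome 2 from 167688915 to 167690418, also of 1 exon) encodes C/EBPβ. Its values were 414.2 and 405.8 CPM in the control libraries and 439.9 and 514.5 CPM in the EGCG libraries. The groups did not overlap, yet EGCG replicate 1 was nearer to the control libraries than to EGCG replicate 2. The log2 fold change was 0.22 with a standard error of 0.085 (95% interval from 0.038 to 0.40), and the adjusted p was 0.324 by edgeR's quasi-likelihood test. This log2 fold change was 0.10 without EGCG replicate 2 and 0.33 without EGCG replicate 1. With the length correction, Cebpb no longer had an unadjusted p under 0.05. Of its exons, 20.7% (312 bases) overlap Tmem189 on the other strand. Reads from there cannot be assigned either, and Tmem189 was also higher with EGCG (log2 fold change 0.18, standard error 0.075). The neutrophil marker sums given above were also higher in both EGCG libraries than in both control libraries, by little for EGCG replicate 2. Of the 10 genes, 3 were higher and 1 lower without overlap, beside 21.5% and 21.2% of all tested genes. S100a9 and S100a8 were the largest parts of these sums, and Ltf and Cxcr2 had negative log2 fold changes (-0.072 and -0.0078). The T and NK cell sums were 85.93 and 96.92 CPM in the control libraries and 97.56 and 100.8 CPM with EGCG. Of the 5 genes, 1 was higher and 2 lower without overlap, to be read beside the same shares. The part of these cells in the values of Cebpd and Cebpb was not tested. The other overlaps were small, with Gm45091 for Cebpa (1.9% of exons, 8 to 11 counts), A430072P03Rik for Gfi1 (3.2%, 19 to 29 counts) and Gm26626 for Runx1 (0.9%, 5 to 19 counts), each on the opposite strand.

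Cebpa and Cebpe gave flat values, and the sign of both turned with the scaling of the libraries. Cebpa (ENSMUSG00000034957, chromosome 7 from 35119293 to 35121928) encodes C/EBPα, which commits progenitors to the granulocyte and monocyte line. Its levels were 130.0 and 114.1 CPM in the control libraries and 118.6 and 129.2 CPM in the EGCG libraries, so that the control libraries enclosed both EGCG libraries. The log2 fold change was 0.021 (95% interval from -0.16 to 0.20). Cebpe (ENSMUSG00000052435, chromosome 14 from 54710360 to 54712174), the late neutrophil factor, was at 145.1 and 144.9 CPM in the control libraries and at 147.5 and 142.8 CPM in the EGCG libraries. These 4 values lie within a few percent of each other, and the 95% interval of the log2 fold change ran from -0.15 to 0.16. A difference beyond 0.899-fold or 1.12-fold is outside that interval for Cebpe, and beyond 0.896-fold or 1.15-fold for Cebpa.

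**Figure D4:**
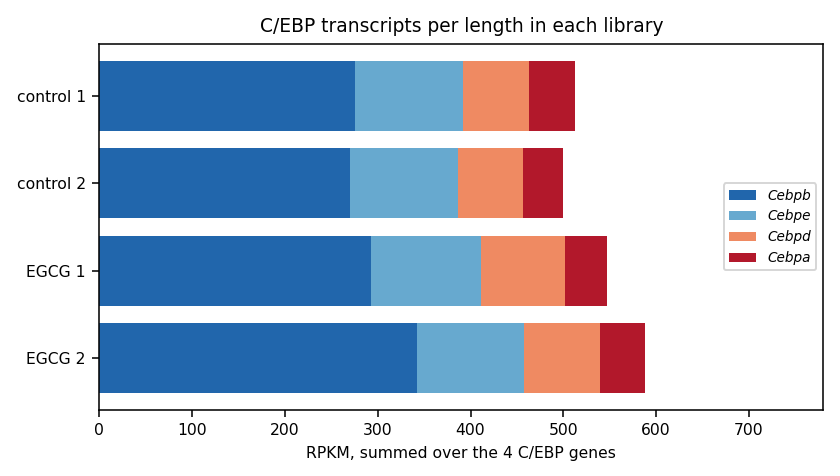
Summed RPKM of the 4 C/EBP genes in each library, with 1 colour for each gene. The bars reach 512.0 and 499.8 RPKM in the control libraries and 546.7 and 588.2 RPKM in the EGCG libraries, and Cebpb is the widest part of each.

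Per length, Cebpb made up 53.8% and 54.0% of the C/EBP transcripts without EGCG and 53.5% and 58.2% with it. Cebpd took 13.8% and 14.0% in the control libraries, then 16.5% and 14.0% with EGCG. Cebpe took 22.8% and 23.4% without EGCG and 21.7% and 19.5% with it, and Cebpa between 8.23% and 9.63% in all 4. The parts of Cebpb and Cebpd may be understated, since reads from their exons that overlap other genes cannot be assigned. Ratios of counts inside a library do not depend on how libraries are scaled, and some were formed after the values had been seen. The ratio of Cebpd to Cebpe was 1.82 and 1.81 in the control group against 2.29 and 2.16 in the EGCG treatment group. For Cebpb over Cebpa it was 3.19 and 3.56 in the control libraries and 3.71 and 3.98 with EGCG. The ratio of Irf8 to Cebpe, a monocyte against a granulocyte factor, overlapped between the groups, with 0.564 and 0.553 without EGCG and 0.545 and 0.583 with it.

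Spi1 and Gfi1 act on either side of the C/EBP factors. Spi1 (ENSMUSG00000002111, chromosome 2 from 91082390 to 91115756) encodes PU.1, which binds the regulatory regions of most myeloid genes. It stood at 873.2 and 881.7 CPM in the control libraries and at 941.6 and 963.1 CPM in the EGCG libraries. Both EGCG libraries were above both control libraries, by a small step. The log2 fold change was 0.12 with a standard error of 0.075 (95% interval from -0.043 to 0.28), and the adjusted p was 0.570 by edgeR's quasi-likelihood test. It kept this sign under each alternative and with each library left out, between 0.083 and 0.14. Gfi1 (ENSMUSG00000029275, chromosome 5 from 107716657 to 107726036) encodes a zinc finger repressor that holds down monocyte genes in granulocyte precursors. Its values were 22.23 and 20.37 CPM in the control libraries and 24.60 and 20.66 CPM in the EGCG libraries. These overlapped, and the log2 fold change of 0.087 had a 95% interval from -0.16 to 0.34.

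The monocyte factors Irf8 and Klf4 were read side by side, and the ratio of Klf4 to Irf8 counts was 0.411 and 0.365 in the control group against 0.264 and 0.340 in the EGCG treatment group. Irf8 (ENSMUSG00000041515, chromosome 8 from 120736358 to 120756694) encodes a factor that favors monocytes and dendritic cells and restrains granulocytes. It was at 81.87 and 80.08 CPM in the control libraries and at 80.47 and 83.25 CPM in the EGCG libraries. The values were interleaved, and the sign turned with the scaling by size alone, with a log2 fold change of 0.016 (95% interval from -0.15 to 0.18). Klf4 (ENSMUSG00000003032, chromosome 4 from 55527143 to 55532466) encodes a zinc finger factor needed for inflammatory monocytes and also active in endothelial cells. Its level was 33.63 and 29.27 CPM in the control libraries and 21.23 and 28.33 CPM in the EGCG libraries. EGCG replicate 2 was just under control replicate 2, whereas EGCG replicate 1 was well under both. The log2 fold change was -0.34 with a standard error of 0.13 (95% interval from -0.62 to -0.068), with an adjusted p of 0.311 by edgeR's quasi-likelihood test. The log2 fold change of Klf4 was -0.57 without EGCG replicate 2, -0.15 without EGCG replicate 1 and -0.24 without control replicate 1.

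The marker sums of 5 other cell types were also lower in both EGCG libraries than in both control libraries. Splenic macrophage markers summed to 352.3 and 363.3 CPM in the control libraries and 285.9 and 301.7 CPM in the EGCG libraries, and 4 of the 7 were lower without overlap, as were 21.2% of all tested genes. Endothelial markers summed to 113.9 and 125.9 CPM in the control libraries and 93.92 and 98.59 CPM with EGCG, with all 4 lower without overlap. The monocyte markers differed less, with 1016 and 979.4 CPM in the control libraries and 929.7 and 929.4 CPM in the EGCG libraries (3 of 6 lower without overlap). Markers of eosinophils, basophils and mast cells summed to 1119 and 995.8 CPM in the control libraries and 968.4 and 832.5 CPM with EGCG (2 of 5 lower and 1 higher without overlap). The lower ones were Prg2 and Epx (log2 fold changes -0.26 and -0.31), and Prg2 was the largest part of this sum. Fcer1a was the higher one (0.37), while Mcpt8 (-0.028) and Cpa3 (0.16) overlapped. Those of megakaryocytes summed to 36.25 and 39.28 CPM in the control libraries and 32.43 and 31.97 CPM with EGCG (1 of 4 lower without overlap). This 1 gene, Itga2b (log2 fold change -0.28), was the largest part of the sum, and Pf4, Ppbp and Gp9 overlapped between the groups. In bulk RNA, fewer cells of a type and less RNA per cell cannot be told apart, and the part of these cells in the value of Klf4 was not tested.

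Runx1 (ENSMUSG00000022952, chromosome 16 from 92601466 to 92826149) encodes the DNA-binding partner of CBFβ. It was at 71.69 and 76.50 CPM in the control libraries and at 63.48 and 73.68 CPM in the EGCG libraries. EGCG replicate 2 lay between the control libraries, and the log2 fold change of -0.11 (standard error 0.089, 95% interval from -0.30 to 0.079) had an adjusted p of 0.663 by edgeR's quasi-likelihood test. It was -0.0011 with a correction for exonic length, which is the longest of the 9 genes, -0.0055 without EGCG replicate 1 and -0.22 without EGCG replicate 2.

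Of 18 tested genes for partners and cofactors of the 9 factors, 0 had an adjusted p under 0.05 by edgeR, and 3 (2 higher and 1 lower) an unadjusted p under 0.05, which is near the 12.2% of all tested genes, with a median log2 fold change of 0.028. Id2, an inhibitor of basic helix-loop-helix factors, was at 223.7 and 247.0 CPM in the control libraries and at 260.8 and 269.0 CPM with EGCG. On the other side stood Cbfa2t3, a corepressor, with 19.39 and 17.68 CPM in the control libraries and 14.06 and 15.00 CPM with EGCG. The acetyltransferase gene Ep300 had a log2 fold change of -0.15 (standard error 0.072). Cbfb, whose product pairs with RUNX1, was at 101.5 and 110.9 CPM in the control libraries and at 113.4 and 116.2 CPM with EGCG.

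Among 31 tested genes of other blood lineage factors, 0 had an adjusted p under 0.05 by edgeR. At an unadjusted p under 0.05, 1 was higher and 3 were lower, beside 5.22% and 7.02% of all tested genes, and the median log2 fold change was -0.059. Klf2, a zinc finger factor of the same family as Klf4, was higher with EGCG, with 242.9 and 255.0 CPM in the control libraries and 264.5 and 321.6 CPM in the EGCG libraries. Zeb2, which acts in monocytes and dendritic cells, was at 201.6 and 197.1 CPM in the control libraries and at 168.7 and 184.3 CPM with EGCG. Nr4a1, a factor of patrolling monocytes, had a log2 fold change of 0.14 (standard error 0.093).

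Genes known to be targets of these factors were read next. Of the 15 granule genes under C/EBPε and C/EBPα, 0 had an adjusted p under 0.05 by edgeR. At an unadjusted p under 0.05 it was also 0, beside 12.2% of all tested genes. The log2 fold changes ran from -0.16 (Itgb2l) to 0.19 (Lyz2). Mpo, the myeloperoxidase of primary granules, was at 244.0 and 229.3 CPM in the control libraries and at 216.9 and 216.1 CPM with EGCG. Mmp9, a gelatinase, was at 2929 and 2937 CPM in the control libraries and at 3185 and 3287 CPM with EGCG. Both kept their groups apart, in opposite directions and by small steps.

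Receptor and effector genes under PU.1 and the C/EBP factors were on 17 tested rows, since Itgam stands on 2 rows of the table. By edgeR 0 of them had an adjusted p under 0.05, with 1 higher and 1 lower at an unadjusted p under 0.05 (12.2% of all tested genes) and a median log2 fold change of 0.020. Csf2rb, the shared β chain of the GM-CSF, IL-3 and IL-5 receptors, had the lowest adjusted p of the list (0.121 by edgeR's quasi-likelihood test). It was at 812.1 and 787.8 CPM in the control libraries and at 624.3 and 660.4 CPM in the EGCG libraries, a log2 fold change of -0.32 (standard error 0.076). The marker sum of eosinophils, basophils and mast cells given above was also lower. Of its 5 genes, 2 (Prg2 and Epx) were lower and 1 (Fcer1a) higher without overlap. The part of these cells in the value of Csf2rb was not tested. Cyba, a subunit of the phagocyte oxidase, was at 920.9 and 918.6 CPM in the control libraries and at 1067 and 1059 CPM with EGCG. The 4 values of Cyba thus formed a pair of close groups, whose log2 fold change was 0.21 (standard error 0.075). Btk had a log2 fold change of -0.14 (standard error 0.073) and the main row of Itgam one of 0.13 (standard error 0.082).

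For the 12 inflammatory genes under C/EBPβ and C/EBPδ the median log2 fold change was -0.18, against 0.0031 over all tested genes, and 10 of the 12 had a lower mean with EGCG. A lower fitted value was found for 49.4% of all tested genes, and Csf3, Il10 and Nos2 among the 10 had at most 23 counts in a library. The macrophage, endothelial and monocyte marker sums given above were lower as well, and the part of these cells in the list's values was not tested. By edgeR 0 of the 12 had an adjusted p under 0.05, and 2, both lower, an unadjusted p under 0.05 (7.02% of all tested genes in that direction). Saa3, an acute-phase protein gene, was at 61.83 and 67.43 CPM in the control libraries and at 47.04 and 47.20 CPM with EGCG, and its log2 fold change was -0.46 (standard error 0.085, adjusted p of 0.0546 by edgeR). Saa3 is a gene that the study singled out in these libraries, so its direction is not independent evidence. By quantitative PCR, the study itself reported a significant increase of Saa3 mRNA with EGCG, which is opposite to the direction in these libraries. Hp, which encodes haptoglobin and is a textbook C/EBPβ target, was at 834.6 and 872.0 CPM in the control libraries and at 945.2 and 945.7 CPM with EGCG. Il1b had a log2 fold change of 0.019 (standard error 0.093).

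Among 12 monocyte genes under IRF8 and KLF4, 0 had an adjusted p under 0.05 by edgeR and 1, F13a1, which was lower, an unadjusted p under 0.05 (7.02% of all tested genes in that direction). F13a1, a coagulation factor subunit gene of monocytes and macrophages, was at 96.88 and 82.09 CPM in the control libraries and at 70.76 and 72.22 CPM with EGCG, a log2 fold change of -0.32 (standard error 0.089). The splenic macrophage and monocyte marker sums given above, the latter with F13a1 among its genes, were lower as well. The part of these cells in the value of F13a1 was not tested. The values of Ly6c2 overlapped, with 120.3 and 146.9 CPM in the control libraries and 157.8 and 132.2 CPM with EGCG. Cst3 had a log2 fold change of 0.093 (standard error 0.077), Ctss one of -0.13 (standard error 0.094), and the list a median of -0.036. With DESeq2, 1 receptor and effector gene and 1 inflammatory gene passed an adjusted p of 0.05, and 0 genes of the other 4 lists. Of all 27490 genes that DESeq2 tested, 0.24% passed.

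**Figure D5:**
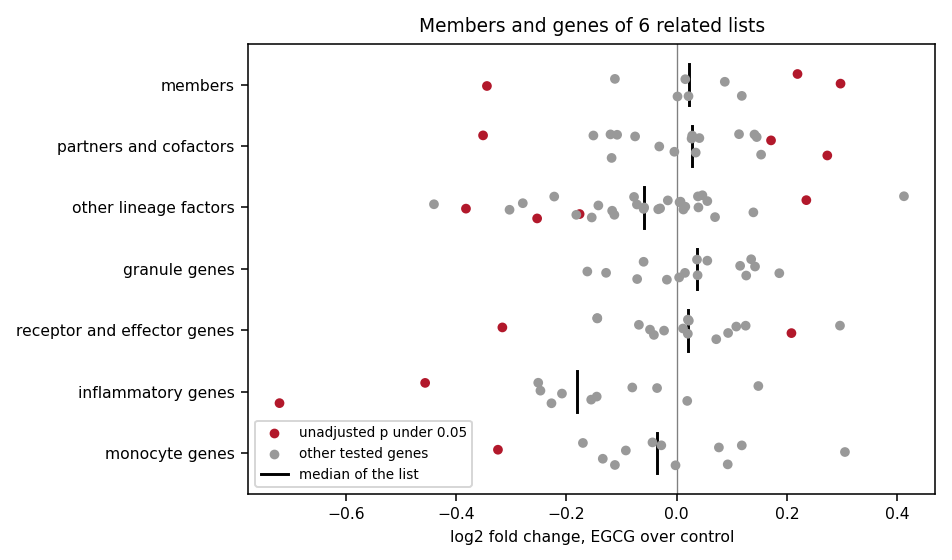
Log2 fold change (EGCG over control) of each tested gene of the 9 members and of 6 related lists, with genes at an unadjusted p under 0.05 in red and the median of each list as a black line. The medians lie between -0.18 (inflammatory genes) and 0.037 (granule genes), and that of the members is 0.021.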

How the data were processed

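RNA-seq reads of 4 libraries were aligned by the authors to GRCm38 with STAR 2.6.0c and counted per gene of Ensembl release 91 with featureCounts 1.6.2, per the labels and the study's methods. The strand of the reads was not used, per the name of the deposited table, which holds whole-number counts that the authors did not normalize. Genes with low counts were removed (filterByExpr, minimum count of 10), TMM factors were applied, and the groups were tested with edgeR 4.0.16 (quasi-likelihood test in its older form, group as the only term) under R 4.3.3. P values were adjusted over all 14682 tested genes by the Benjamini-Hochberg method, with 0.05 as the threshold. A standard error is the log2 fold change divided by the square root of F. The test was also run on counts simulated from the means and spread of these libraries.

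The 9 genes and the gene and marker lists were chosen with earlier results of these data known. Named genes are the 9 members, the genes that overlap their exons, and from each list the higher and the lower genes of smallest unadjusted p, 2 at most each way, among those with at least 10 counts in every library. Cbfb, Csf3, Il10, Nos2, Xist and single genes of the marker lists were named after their values had been seen. Some genes that this rule names are not reported here. GENCODE M21 (GRCm38) gave positions, lengths of exons and GC contents for 53360 of the 53465 genes. The alternatives were 2 other filters, 3 other scalings, 2 other edgeR fits, DESeq2 1.42.0, corrections for exonic length and for GC content (loess with a span of 0.4 in each library), a replicate block alone and with each correction, and leaving out each library in turn.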

Additional observations from a re-analysis of the deposited data

How the results depend on the processing

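No member passed an adjusted p of 0.05 under the 13 alternatives that kept all libraries, and 2 or 3 members had an unadjusted p under 0.05, beside 3.31% (DESeq2) to 14.3% (replicate block with GC correction) of all tested genes. Cebpb, Cebpd, Spi1, Gfi1, Klf4 and Runx1 kept their direction under these. Cebpe became -0.00081 with the stricter filter, -0.034 with library size only, -0.052 with the length correction (also with the replicate block, -0.052) and -0.0026 with the GC correction (-0.0027 with the replicate block). Cebpa became -0.015 with library size only, -0.0100 with the length correction and -0.0081 with that and the replicate block, and Irf8 -0.020 with library size only. The median of the members moved to 0.064 with the length correction and to 0.063 with that and the replicate block, and was -0.015 with library size only. The groups did not overlap for 4 to 6 members, beside 33.1% (DESeq2 and no filter) to 43.9% (GC correction) of all tested genes.

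With a library left out, its group held a single library and the spread came from the other group alone. Adjusted p values of these fits are therefore not given. The median of the members ran from 0.0031 to 0.12. Of the members, 5 to 8 did not overlap between the groups, where 67.9% to 74.1% of all tested genes did not. The log2 fold change ran from 0.23 to 0.37 for Cebpd and from -0.57 to -0.15 for Klf4. Log2 fold changes ran from -0.067 to 0.12 for Cebpa, from -0.020 to 0.026 for Cebpe, from -0.042 to 0.21 for Gfi1 and from -0.0079 to 0.042 for Irf8. Causes were not tested.

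In the related lists, 0 genes passed an adjusted p of 0.05 with the main settings. Under some of the 13 alternatives 1 or 2 inflammatory genes passed. Of all tested genes, 0.0545% (length correction) to 1.03% (library size only) passed under these. With library size only (1.03%) and with DESeq2 (0.24%), 1 receptor and effector gene also passed. Counts of passing genes with a library left out are not given for these lists, since the spread then came from the other group alone.

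Over all genes, 22 were called, against 0 without a filter (777 higher and 1018 lower at an unadjusted p under 0.05), 151 with library size only, 11 with upper-quartile scaling, 63 with the robust fit, 66 with DESeq2, 8 with the length correction, 59 with the GC correction, and 37 and 34 with the replicate block and each correction. The replicate block alone called 30 genes and 0 members. For the same reason, no count over all genes is given with a library left out. Libraries of the same number did not deviate together (correlation of 0.0076 over 11070 genes), so the numbers were not read as pairs. Each interval rests on 2 libraries per group, and edgeR draws the spread of a gene toward that of genes at a similar level.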
